A study of Mus musculus with 24 samples.

Results

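The guanylate-binding proteins (GBPs) and the immunity-related GTPases (IRGs) are 2 families of interferon-induced GTPases, described here in the livers of diabetic mice fed quercetin. The genes were Gbp2, Gbp3, Gbp6, Gbp7, Igtp, Irgm1, Irgm2, Iigp1, Ifi47 and Tgtp1, and a gene was taken where a probe set carried its symbol alone. By that rule 9 of the 10 genes were found, on 13 probe sets, out of 18193 genes with a probe set of their own. All 13 probe sets passed the filter on low signal, and the 9 genes were tested among 13117. Tgtp1 was represented only by a probe set shared with Tgtp2, which is given separately.

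Interferons signal through receptors that carry JAK kinases. Interferon-gamma acts largely through promoter elements called gamma-activated sequences (GAS), and type I interferons largely through interferon-stimulated response elements (ISRE). GBPs are large GTPases that assemble on the vacuoles of intracellular microbes and take part in inflammasome activation. IRGs fall into regulators that sit on the cell's own membranes (Irgm1, Irgm2 and Igtp, also called Irgm3) and effectors that load onto pathogen vacuoles (Iigp1, Ifi47 and Tgtp1). Hepatocytes, endothelial cells and macrophages of the liver can all transcribe these genes under interferon.

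Liver RNA came from 24 male BALB/c mice, 6 in each of 4 groups, with 1 array per mouse. Untreated mice on the purified diet AIN93G were the controls. The other 18 mice had each received 1 intraperitoneal dose of streptozotocin (STZ, 185 mg/kg), a toxic glucose derivative taken up by the pancreatic beta cells that make insulin. They were selected for hyperglycaemia 1 week later and fed AIN93G alone (STZ) or AIN93G with 0.1% or 0.5% quercetin, a plant flavonol, for 14 days. The mice were 6 weeks old on arrival. Controls received no treatment at all according to the labels, so the injection itself is part of the STZ contrast, and STZ reaches the liver as well as the pancreas. The mice were kept 3 to a cage, the labels do not tie mice to cages, and the p-values count each of the 6 mice as a separate replicate.

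Mean array intensity ranged from 61.0 to 102.0. On the first principal component, which held 22.4% of the variance, controls lay between -18.3 and -13.5. The 2 arrays labelled 0.5% quercetin replicates 5 and 6 lay at -17.2 and -19.2, and the remaining STZ-treated mice lay between -0.86 and 19.6. The same 2 arrays had Ighm levels (immunoglobulin mu heavy chain) of 7.59 and 7.84, within the control range of 7.07 to 8.12 and above the 5.20 to 6.44 of the other STZ-treated mice. Whether these 2 arrays carry the right labels could not be checked from the files, so each 0.5% quercetin value over 6 mice rests on labels in doubt. The comparisons, orders and correlations that include them are therefore given with and without them. The 6 hepatocyte markers, which check the labelled tissue, had a summed intensity of 42273 to 44958 in every group, and 0 of them were called in STZ against control.

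Promoters are shown first because interferon-responsive elements in them are the best known control of these families. RefSeq promoter entries (GRCm38.p6) were used for 7 of the 9 genes, with 8 start sites in all, and for Tgtp1 as well. The promoters of Gbp6 and Iigp1 were not searched, so the motif counts below leave these genes out. In the 250 bases before each start, an ISRE core (GAAA, any 2 bases, GAAA) and a GAS (TTCNNNGAA, where N is any base) were searched on both strands, so that the ISRE core can also read TTTC, 2 bases, TTTC. The motifs are short and a match describes letters only. Among all 32851 windows of this length, 2.98% held the ISRE core, 7.02% the GAS and 0.332% both. Of the 8 windows of the 7 genes, 6 held the ISRE core and 3 the GAS, those of Gbp7, Igtp and Irgm2. The windows of Gbp7 (chr3:142530086-142530335), Gbp3 (chr3:142559794-142560043, the first of its 2 starts) and Gbp2 (chr3:142620413-142620662), all on the plus strand, are printed 5′ to 3′ with motif matches in capitals.
Gbp7: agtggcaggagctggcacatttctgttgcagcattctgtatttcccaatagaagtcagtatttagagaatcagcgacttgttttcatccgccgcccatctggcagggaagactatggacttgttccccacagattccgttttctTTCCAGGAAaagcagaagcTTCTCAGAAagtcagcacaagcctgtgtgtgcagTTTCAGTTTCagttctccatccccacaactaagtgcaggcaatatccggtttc
Gbp3: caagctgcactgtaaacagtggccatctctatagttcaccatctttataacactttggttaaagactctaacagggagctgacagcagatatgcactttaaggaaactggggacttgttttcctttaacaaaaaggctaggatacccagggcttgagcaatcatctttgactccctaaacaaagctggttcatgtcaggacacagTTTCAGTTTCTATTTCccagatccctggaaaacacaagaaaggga
Gbp2: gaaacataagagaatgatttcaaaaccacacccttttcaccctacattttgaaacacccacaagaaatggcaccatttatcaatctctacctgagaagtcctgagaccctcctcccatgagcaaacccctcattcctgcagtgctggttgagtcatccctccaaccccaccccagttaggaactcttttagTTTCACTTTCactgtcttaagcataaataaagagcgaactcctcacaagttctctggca

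The ISRE core ended 43 bases before the start in Gbp7 and 49 bases before it in Gbp2, and Gbp3 had 2 overlapping matches ending 35 and 29 bases before its start. Gbp7 and Gbp3 are neighbours, with 0 protein-coding genes between them, and 1 lies between Gbp3 and Gbp2. Gbp7 alone of these 3 had GAS matches, ending 97 and 78 bases before the start. Windows of the neighbours Igtp (chr11:58199306-58199555) and Irgm2 (chr11:58214727-58214976), both on the plus strand, are printed because the windows share a run of 55 bases while the genes' changes differed in size, as given further on.
Igtp: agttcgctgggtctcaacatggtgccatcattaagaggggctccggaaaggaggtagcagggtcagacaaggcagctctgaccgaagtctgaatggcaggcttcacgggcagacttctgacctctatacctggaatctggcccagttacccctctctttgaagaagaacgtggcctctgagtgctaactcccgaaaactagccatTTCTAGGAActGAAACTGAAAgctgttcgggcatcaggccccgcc
Irgm2: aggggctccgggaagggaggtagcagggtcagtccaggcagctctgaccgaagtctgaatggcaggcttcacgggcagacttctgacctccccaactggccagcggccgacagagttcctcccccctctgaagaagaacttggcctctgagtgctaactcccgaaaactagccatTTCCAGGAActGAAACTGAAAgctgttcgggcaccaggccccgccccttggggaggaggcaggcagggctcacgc

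In both, a GAS match stood shortly before an ISRE core, which ended 24 bases before the start in Igtp and 54 in Irgm2. These matches lay outside the shared run of 55 bases, which is further upstream. The GAS read TTCTAGGAA in Igtp and TTCCAGGAA in Irgm2. Tgtp1 had the same pairing of a GAS and an ISRE core, with the latter ending 67 bases before the start. The Irgm1 window held 2 overlapping ISRE cores ending 20 and 14 bases before the start. The Ifi47 window and the window of the second Gbp3 start held neither motif.

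The first comparison asked what differed in the liver after STZ treatment on the same diet. Of the 9 genes, 4 rose in STZ mice, the 3 GBPs Gbp3, Gbp6 and Gbp7 and the IRG regulator Igtp, by 0.56 to 1.04 on the log2(intensity + 16) scale, and 0 fell (limma, adjusted p under 0.05 over all genes tested). Over all genes, 2.03% were called higher and 1.69% lower in this comparison. The median difference was 0.42 over the 9 genes, with all 9 above 0, and -0.02 over all genes. By family it was 0.71 over the 4 GBPs and 0.25 over the 5 IRGs. Levels in the following paragraphs are on the same log2 scale after quantile normalization, and because 16 was added before the logarithm, folds of dim genes are understated.

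Gbp3, a GBP that gathers on the vacuoles of parasites such as Toxoplasma, showed the largest difference of the 9. Its level was 4.84 at the lowest, 5.10 at the median and 5.13 at the highest in controls, against 5.79, 6.00 and 6.48 in STZ mice. All 6 STZ mice lay above every control, as they did for 4 of the 9 genes and for 1.96% of all genes. The difference was 1.04 (SE 0.18, n = 6 mice per group), a 2.06-fold rise on this scale (limma adjusted p = 0.00109). With 1 in place of 16 as the added constant the difference was 1.57, and with 64 it was 0.52.

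Gbp7, which binds NADPH oxidase subunits as part of its known antimicrobial role, ranged from 6.11 over a median of 6.22 to 6.32 in controls and from 6.56 over 6.78 to 7.07 in STZ mice. Again the 6 STZ mice stood clear of the controls. The difference was 0.56 (SE 0.10, n = 6, limma adjusted p = 0.00286), and the other probe set of Gbp7 gave 0.42 (SE 0.12, adjusted p = 0.0446 over probe sets). Gbp3 and Gbp7 each passed in 25 of 26 alternative analyses, the exception being the one with a Gapdh quality term given further on.

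Gbp6 ranged from 6.17 over 6.71 to 6.99 in controls and from 7.34 over 7.45 to 7.91 in STZ mice, with no overlap. The difference was 0.87 (SE 0.25, n = 6, limma adjusted p = 0.0438). A second Gbp6 probe set gave 0.78 (SE 0.21, adjusted p = 0.0353 over probe sets), with overlap between the groups. The call for the first lay near the threshold: it passed in 10 of 26 alternatives, and leaving out any 1 mouse of the 12 except control replicate 2 took the adjusted p to between 0.0514 and 0.105.

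Gbp2, a prenylated GBP that targets pathogen vacuoles, did not pass. Levels were 4.37, 4.64 and 5.15 (lowest, median and highest) in controls and 4.84, 5.06 and 5.35 in STZ mice, where 2 of 6 lay above every control. The difference was 0.42 (SE 0.12, n = 6, limma adjusted p = 0.0525). Its signal lay low on the scale, where the added constant weighs heavily, and the difference was 0.92 with a constant of 1 and 0.16 with 64. The second Gbp2 probe set gave 0.29 (SE 0.12, adjusted p = 0.264 over probe sets).

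Among the IRG regulators, Igtp, a membrane-bound protein that holds effector IRGs inactive on the cell's own organelles, ranged from 7.06 over 7.42 to 7.53 in controls. In STZ mice it ranged from 7.67 over 8.02 to 8.37, and the groups did not overlap. The difference was 0.61 (SE 0.15, n = 6, limma adjusted p = 0.0205). It missed the threshold on the values as deposited (0.71, adjusted p = 0.0989) and after median scaling (0.58, adjusted p = 0.0657), and also without control replicate 2 or STZ replicate 1, 3 or 6, with adjusted p between 0.0523 and 0.0572.

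Irgm1, the regulator linked to autophagy and to survival of mycobacterial infection, ranged from 7.01 over 7.24 to 7.35 in controls and from 7.31 over 7.50 to 7.78 in STZ mice. Here 4 of 6 STZ mice lay above all controls, and the difference of 0.29 (SE 0.13, n = 6) did not pass (limma adjusted p = 0.247). Irgm2, a regulator of the Golgi, ranged from 6.55 over 7.26 to 7.51 in controls and from 6.93 over 7.21 to 7.46 in STZ mice. None of the STZ mice lay above all controls, and the difference was 0.09 (95% interval -0.23 to 0.41, limma adjusted p = 0.827). Without control replicate 2 it was -0.02. Igtp and Irgm2 were set side by side after their values were seen, and the difference between their changes was not tested.

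Of the effectors, Iigp1 and Ifi47 had probe sets of their own, and 0 of these 2 genes passed. Iigp1, which coats pathogen vacuoles and disrupts them, was measured by 2 probe sets. In the brighter, controls ranged from 10.05 over 10.32 to 10.53 and STZ mice from 10.33 over 10.54 to 10.76, with 4 of 6 above the highest control. The differences were 0.25 (SE 0.12, limma adjusted p = 0.283) and, in the second probe set, 0.29 (SE 0.13, adjusted p = 0.278 over probe sets). Ifi47 ranged from 6.86 over 7.04 to 7.36 in controls and from 6.94 over 7.20 to 7.60 in STZ mice, groups that overlapped over most of their range. Its difference was 0.15 (SE 0.14, limma adjusted p = 0.638).

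The probe set that lists both Tgtp2 and Tgtp1, near-identical effector genes that it cannot separate, ranged from 5.25 over 5.69 to 5.99 in controls and from 6.28 over 6.59 to 7.22 in STZ mice. The groups did not overlap. The difference was 1.01 (SE 0.19, n = 6, limma adjusted p = 0.0039 over probe sets), and it cannot be assigned to either gene.

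**Figure D1:**
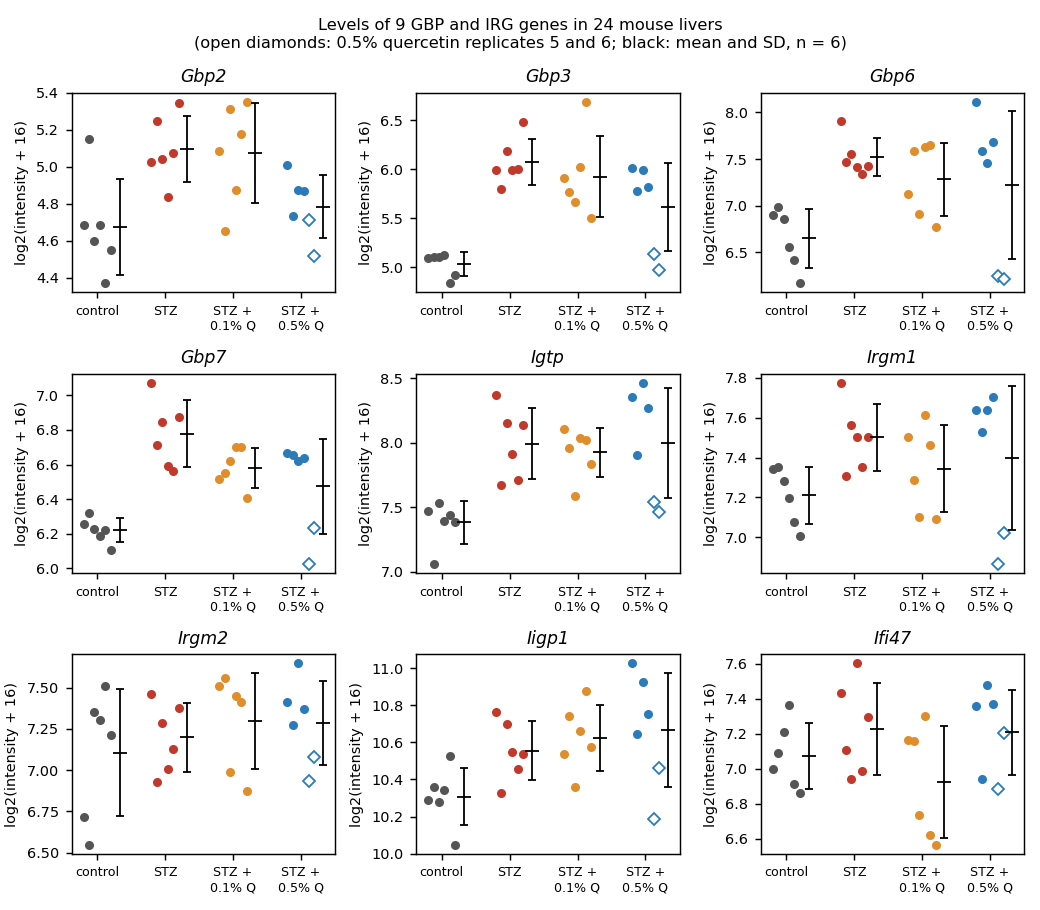
Level of each of the 9 genes, log2(intensity + 16) on the y axis with its own range in each panel, in each of 24 mice by group, where points are mice and black bars the mean and SD (n = 6). STZ points lie clear of all control points for Gbp3, Gbp6, Gbp7 and Igtp, and the open diamonds, 0.5% quercetin replicates 5 and 6, lie near the controls.

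Several measures differed together with STZ treatment. The log2 difference between the 3′ and 5′ Gapdh control probe sets, a sign of RNA or labelling quality, averaged -0.04 ± 0.17 in the control group (SD, n = 6) and -0.34 ± 0.10 in the STZ group. With 0.1% quercetin it was -0.32 ± 0.15 and with 0.5% it was -0.21 ± 0.17. Within the 0.5% group the arrays labelled replicates 5 and 6 had -0.06 and 0.01, and replicates 1 to 4 between -0.40 and -0.14. With this difference as a term in the fit, 0 of the 9 genes passed in STZ against control, and only 6 genes of all 13117 did. The differences in that fit were 0.84 for Gbp3 (adjusted p = 0.171), 0.73 for Gbp6 (0.51), 0.41 for Gbp7 (0.309) and 0.52 for Igtp (0.407). The Gapdh difference spanned -0.18 to 0.28 in controls and -0.46 to -0.17 in STZ mice, so it nearly separated these groups. RNA quality and STZ treatment therefore cannot be told apart in this fit. The part of RNA quality in the rises was not tested beyond this.

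Of 11 macrophage and Kupffer cell markers tested, 4 rose in STZ mice and 0 fell, against 2.03% and 1.69% of all genes. The same shares apply to the other cell types below. Mpeg1 rose by 0.70, C1qb by 0.62, Cd5l by 0.58 and C1qa by 0.48 (SE 0.14 to 0.16). Clec4f (0.26, adjusted p = 0.215), which marks Kupffer cells, and Adgre1 (0.21, adjusted p = 0.211) did not pass. The summed intensity of the markers spanned 1324 to 1703 in the control group and 1847 to 2393 in the STZ group. With 0.1% quercetin it spanned 1959 to 2276, and with 0.5% it spanned 1330 to 2157. In 0.5% quercetin replicates 5 and 6 it was 1361 and 1330. In bulk liver, a change in the number of cells of a type and a change in RNA per cell cannot be told apart. The part of macrophages in the GBP and IRG differences was not tested. T and NK cell markers gave 0 calls among 6 tested and dendritic cell markers 0 among 4, while Ighm, 1 of 4 B cell markers, fell by 1.63. Lyve1, 1 of 6 endothelial markers, rose by 1.02 and Dcn, 1 of 6 stellate cell markers, by 0.41. Summed T and NK cell intensity was 37.9 to 50.9 in controls and 35.9 to 45.9 in STZ mice, with Cd3e, Cd3d, Cd4, Nkg7 and Ncr1 under the filter.

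The pathway around these GTPases was described with 7 lists ordered by role, of which 59 genes were tested. In STZ against control 6 of the 59 rose and 1 fell, with a median of 0.12. Over all genes 2.03% were called higher and 1.69% lower, with a median of -0.02. The counts per list below are to be read against these shares. Ligands gave 0 calls among 4 tested, which were Ifna1, Ifna2, Il12a and Il18. Ifna1, Ifna2 and Il12a lay low on the scale, where the added constant weighs heavily. Their lack of calls therefore cannot show that they were unchanged. Ifng, the gene of interferon-gamma, lay under the filter, as did Ifna4, Ifnb1 and Il12b, so changes in these were not tested. Among 7 receptors and kinases, only Jak1, the kinase shared by the interferon receptors, rose (0.29, SE 0.08, adjusted p = 0.0453). The 2 chains of the interferon-gamma receptor differed by 0.01 (Ifngr1, adjusted p = 0.979) and 0.12 (Ifngr2, adjusted p = 0.663).

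Among 10 transcription factors, Irf7, which amplifies type I interferon responses, was 6.18, 6.51 and 6.89 (lowest, median, highest) in controls and 7.36, 7.49 and 7.75 in STZ mice. It rose by 0.97 without overlap. Irf2, best known as an antagonist of IRF1, fell by 0.43, from a control range of 6.57 to 7.08 to 6.22 to 6.54 in STZ mice. Irf1, the factor most closely tied to GBP induction, differed by -0.02 and Irf8, a myeloid factor, by -0.22, and neither passed. Nlrc5, the transactivator of MHC class I genes, differed by 0.32 (limma adjusted p = 0.203). Among 6 inhibitors Usp18, which removes ISG15 from proteins and dampens type I receptor signalling, rose by 1.15, from a range of 5.72 to 6.35 to one of 6.74 to 7.88. Socs1, the feedback inhibitor of JAK kinases, differed by -0.05 and did not pass.

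Of 3 other family genes tested, Gbp2b, a further GBP of the chromosome 3 group, rose by 0.65 (SE 0.15, limma adjusted p = 0.0146, 6 of 6 STZ mice above all controls). Gbp8 differed by 0.23 (adjusted p = 0.253) and the IRG-related Irgq by -0.10 (adjusted p = 0.729). Among 17 other interferon targets, the chemokine Cxcl9 rose by 0.76 and the MHC class I gene H2-K1 by 0.59, and 15 did not pass. None of the 12 autophagy and ubiquitin partners tested passed, with a median of 0.02. With the Gapdh term, 0 of the 59 pathway genes were called, and without STZ replicate 6 there were 3.

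**Figure D2:**
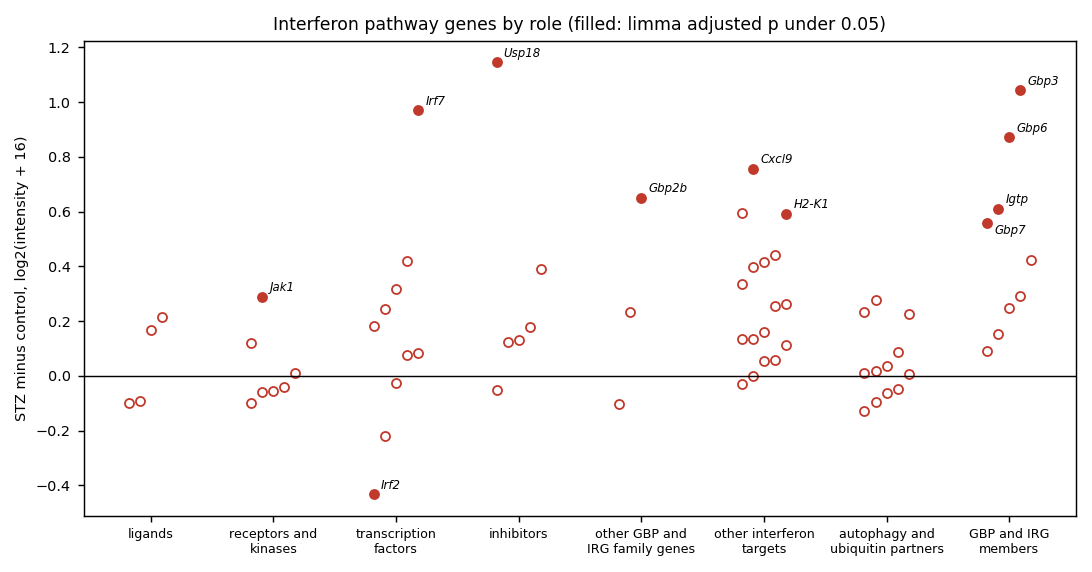
Difference between STZ mice and controls (y axis, log2 scale) for each tested gene of the interferon pathway lists and the 9 GBP and IRG genes, grouped by role along the x axis, where each point is a gene and filled points passed limma's adjusted threshold. The filled points are Jak1, Irf7, Usp18, Gbp2b, Cxcl9, H2-K1, Gbp3, Gbp6, Gbp7 and Igtp above 0 and Irf2 below it.

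Mice on quercetin were compared with untreated controls and with STZ mice on the plain diet. These comparisons share mice, so they are not independent. With 0.1% quercetin, Gbp3, Gbp7 and Igtp, 3 of the 9 genes, were higher than in controls and 0 lower, against 2.94% and 2.64% of all genes. Gbp3 ranged from 5.50 over 5.84 to 6.69 and differed from controls by 0.89 (SE 0.18, n = 6, limma adjusted p = 0.00259). Gbp7 ranged from 6.40 over 6.58 to 6.70 and differed by 0.36 (SE 0.10, adjusted p = 0.0382). Igtp, at 7.59 to 8.11 around 7.99, differed by 0.54 (SE 0.15, adjusted p = 0.0316). For these 3 genes all 6 mice lay above every control, as for 2.1% of all genes. Gbp6, from 6.77 over 7.36 to 7.65, differed by 0.63 but did not pass (adjusted p = 0.141), and 4 of 6 mice lay above every control.

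The other 5 genes did not pass at 0.1% quercetin. Gbp2 ranged from 4.65 over 5.13 to 5.35 and differed from controls by 0.40 (adjusted p = 0.0552), and Iigp1, from 10.36 over 10.62 to 10.88, by 0.32 (adjusted p = 0.116). Irgm1 ranged from 7.09 over 7.38 to 7.61, and Irgm2 from 6.87 over 7.43 to 7.56. They differed by 0.13 and 0.19. Ifi47 had the lowest mean of the 4 groups here, from 6.57 over 6.95 to 7.30, and was the only one of the 9 below the control mean (-0.15, limma adjusted p = 0.609). With the Gapdh term none of the 9 passed at 0.1% quercetin, and on values as deposited Gbp3 alone did. Calls over all genes fell as well, from 731 to 4 with that term and to 217 on values as deposited. Gbp3 was also the only call without control replicate 4 or 6, or without 0.1% quercetin replicate 1 or 5.

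Against STZ mice, 0 of the 9 genes changed at 0.1% quercetin, and 0% of all genes did. At an unadjusted p under 0.05 the count was 1 of 9, Ifi47 (-0.30, 95% interval -0.59 to -0.02), against 5.24% of all genes. Differences ranged from -0.30 to 0.10 over the 9 genes. The 95% interval for Gbp3 ran from -0.51 to 0.21 and that for Gbp7 from -0.41 to 0.02, so falls of the size of the STZ difference itself lay outside both.

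Among the arrays labelled 0.5% quercetin the levels lay far apart. Gbp3 ranged from 4.97 over 5.80 to 6.01, Gbp6 from 6.22 over 7.52 to 8.11 and Gbp7 from 6.03 over 6.63 to 6.67. Igtp ranged from 7.46 over 8.08 to 8.46 and Irgm1 from 6.87 over 7.58 to 7.70. In each of these 5 genes, on the probe set with the highest mean, replicates 5 and 6 were the lowest mice of the group. The second Gbp6 probe set had the same split, with 6.41 and 6.17 in those 2 mice. The second Gbp7 probe set did not: replicate 5 was highest at 5.94, replicate 6 was 5.63 and replicate 1 lowest at 5.18. Relative to the control mean, Gbp3 was -0.06 and 0.10 in those 2 mice and 0.75 to 0.98 in replicates 1 to 4. Gbp6 was -0.43 and -0.40 against 0.81 to 1.47, and Gbp7 -0.19 and 0.02 against 0.40 to 0.45. Igtp was 0.08 and 0.16 in them, and 0.52 to 1.08 in the rest.

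The remaining genes at 0.5% quercetin were less divided. Iigp1 ranged from 10.19 over 10.70 to 11.03, and Irgm2 from 6.93 over 7.32 to 7.65, both again with replicates 5 and 6 lowest. Gbp2, from 4.51 over 4.80 to 5.01, was 0.04 and -0.16 relative to the control mean in those 2 mice and 0.06 to 0.33 in the others. Ifi47, from 6.89 over 7.28 to 7.48, had no such split, with -0.19 and 0.13 in those 2 mice and -0.13 to 0.41 in the others. Averaged over the 9 genes, replicates 5 and 6 were -0.12 and -0.05 relative to controls. Replicates 1 to 4 lay between 0.38 and 0.66.

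**Figure D3:**
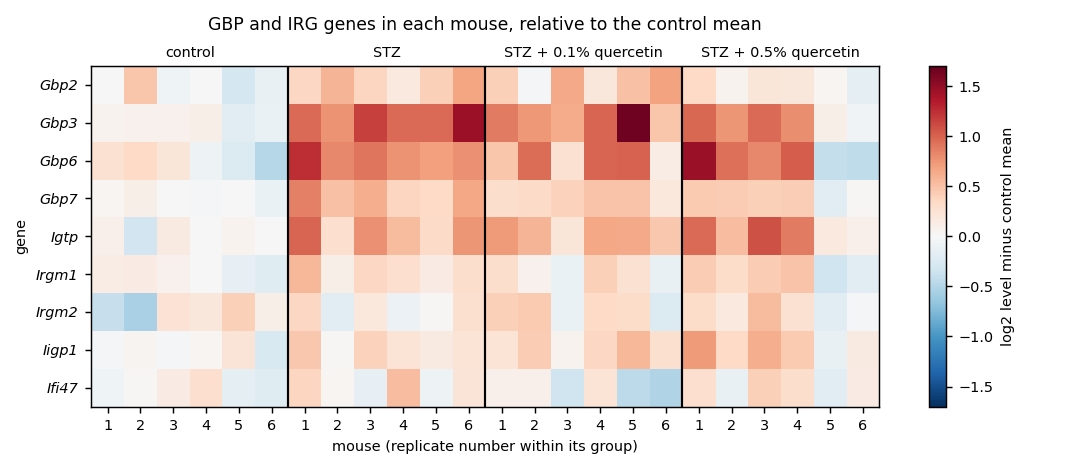
Level of each of the 9 genes (rows) in each of 24 mice (columns, by group and replicate number), as the log2 difference from the control mean, with red higher and blue lower. Columns 5 and 6 of the 0.5% quercetin group are pale or blue for Gbp3, Gbp6 and Gbp7, where replicates 1 to 4 of that group are red.

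Over all 6 mice, 0 of the 9 genes passed in 0.5% quercetin with STZ against control, where 0.0534% of all genes were called higher and 0.0762% lower. For 0 of the 9 did all 6 mice lie above the controls (0.252% of all genes), and at an unadjusted p under 0.05 the count was 5 of 9, against 12.3% of all genes. Differences were 0.62 for Igtp (SE 0.15, limma adjusted p = 0.0761), 0.59 for Gbp3 (SE 0.18, adjusted p = 0.153), 0.57 for Gbp6 (SE 0.25, adjusted p = 0.339) and 0.25 for Gbp7 (SE 0.10, adjusted p = 0.305). Without replicates 5 and 6, 6 of the 9 were higher than in controls: Gbp6 by 1.06, Gbp3 by 0.87, Igtp by 0.86, Iigp1 by 0.53, Gbp7 by 0.42 and Irgm1 by 0.42 (limma adjusted p from 0.00025 to 0.0318), against 1.78% of all genes in that fit. Leaving out these 2 mice also lowered the spread shared by all groups, and Gbp2 then passed in STZ against control (limma adjusted p = 0.0426), where 2.62% of all genes were called higher. In 0.1% quercetin with STZ against control the count became 6, with Gbp2, Gbp6 and Iigp1 added, against 3.57% of all genes called higher.

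Against STZ mice, 0 of 9 genes passed at 0.5% quercetin, and 0% of all genes. At an unadjusted p under 0.05 the count was 3 of 9, against 7.51% of all genes. The 4 GBPs differed by -0.46 (Gbp3, SE 0.18, adjusted p = 0.576), -0.31 (Gbp2, SE 0.12, adjusted p = 0.579), -0.30 (Gbp7, SE 0.10, adjusted p = 0.562) and -0.30 (Gbp6, SE 0.25, adjusted p = 0.825). The 5 IRGs differed by -0.10 to 0.11. Without replicates 5 and 6 the GBP differences were -0.18 for Gbp3, -0.23 for Gbp2, -0.13 for Gbp7 and 0.19 for Gbp6, and those of the IRGs were 0.06 to 0.28, with an adjusted p of 0.998 for each.

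The 2 quercetin doses were also compared directly, and 0 of the 9 genes passed, as did 0% of all genes (at an unadjusted p under 0.05, 1 of 9 and 8.34%). Differences of 0.5% from 0.1% ran from -0.31 for Gbp3 to 0.28 for Ifi47. Without replicates 5 and 6, 0 of 9 passed again. Gbp3 was then at -0.03, Gbp6 went from -0.06 to 0.43, Gbp7 from -0.11 to 0.06 and Igtp from 0.07 to 0.32. In the trend over the 18 STZ-treated mice, 0 of 9 slopes passed, again with 0% of all genes, and at an unadjusted p under 0.05 the count was 3 of 9, against 8.13%. Slopes per 1% of quercetin in the diet were -0.65 for Gbp2 (SE 0.22, limma adjusted p = 0.503), -0.87 for Gbp3 (SE 0.36, adjusted p = 0.569) and -0.51 for Gbp7 (SE 0.22, adjusted p = 0.582). Without replicates 5 and 6 they were -0.46, -0.28 and -0.16, and the slope of Gbp6 went from -0.48 to 0.54. In all 4 GBPs the group means ran control, 0.5%, 0.1%, STZ from lowest to highest, and no neighbouring pair in that order differed past the threshold. Without replicates 5 and 6 this order held for Gbp2 and Gbp3, while Gbp6 ran control, 0.1%, STZ, 0.5% and Gbp7 control, 0.1%, 0.5%, STZ. The second probe sets of Gbp2 (STZ 4.89, 0.1% quercetin 4.98) and Gbp6 (0.1% quercetin, at 6.93, below 0.5%) did not follow the order either. The IRGs had no common order.

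**Figure D4:**
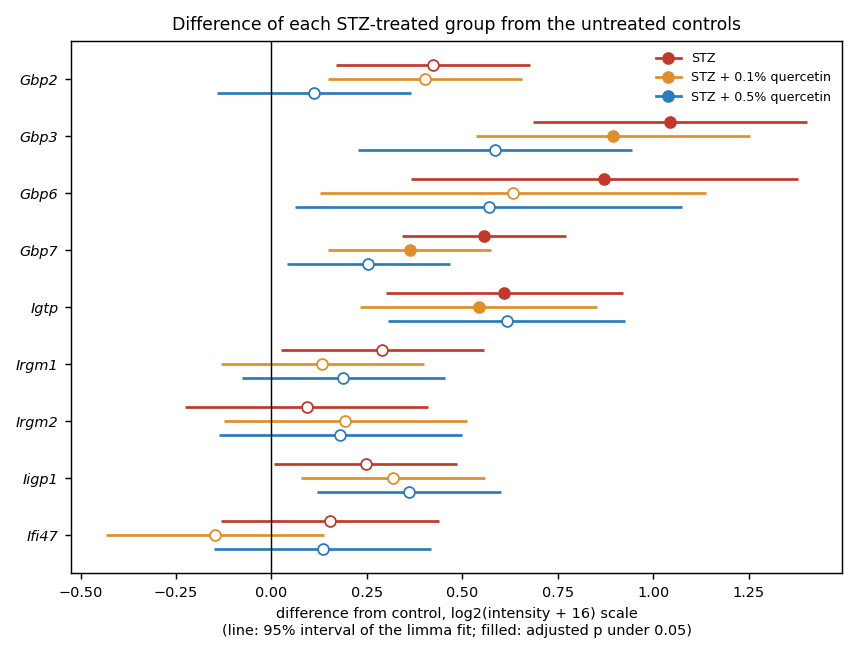
Difference of each STZ-treated group from the untreated controls (x axis, log2 scale) for the 9 genes (y axis), where points are the fitted differences, lines their 95% intervals and filled points those with limma adjusted p under 0.05. Filled points are the 4 of STZ alone and the 3 of 0.1% quercetin, and none is filled at 0.5%.

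The 9 genes differed in how closely they moved together. With group means subtracted, Pearson's r over 24 arrays between each gene and the mean of the other 8 was 0.92 for Irgm1, 0.84 for Gbp7 and Gbp6, 0.83 for Igtp, 0.81 for Iigp1 and 0.78 for Gbp3. It was 0.49 for Irgm2, 0.42 for Ifi47 and 0.06 for Gbp2. The arrays share their normalization. Without 0.5% quercetin replicates 5 and 6, over 22 arrays, r was 0.81 for Irgm1, between 0.59 and 0.67 for Gbp3, Gbp6, Gbp7, Igtp and Iigp1, 0.38 for Ifi47, 0.34 for Irgm2 and -0.25 for Gbp2. Outside the families, the genes most like the mean of the 9 over 24 arrays were Ifit1 (r = 0.93), Xaf1 (0.92), Oas1a (0.91), Lgals3bp (0.91) and Rtp4 (0.91), out of 13108 genes. Over the 22 arrays the same 5 genes led, with r from 0.89 to 0.91. After subtraction of group means they were Ifit1 (0.90), Xaf1 (0.89), Ifitm3 (0.86), H2-D1 (0.86) and Rtp4 (0.86). Over the 22 arrays with group means subtracted, they were Tmem101 (0.76), Ifit3 (0.75), Ifit1 (0.74), Spon1 (0.73) and Tacc3 (0.73), so Ifit1 alone of the first 5 remained. Several of these are textbook interferon-stimulated genes, Ifit1 binding foreign RNA, Oas1a making the messenger that activates RNase L, and Ifitm3 blocking viral entry. In STZ against control Ifit1 rose by 0.89 (SE 0.20, limma adjusted p = 0.0107), Oas1a by 0.88 (SE 0.21, adjusted p = 0.0149) and Lgals3bp, a secreted glycoprotein, by 0.75 (SE 0.16, adjusted p = 0.00637). H2-D1 rose by 0.56 (SE 0.13, adjusted p = 0.0146) and Rtp4 by 0.61 (SE 0.18, adjusted p = 0.0499). Xaf1 (0.59, SE 0.19, adjusted p = 0.0733) and Ifitm3 (0.31, SE 0.11, adjusted p = 0.105) did not pass.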

How the data were processed

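Liver RNA of 24 mice was measured on Affymetrix arrays from biotin-labelled cRNA, per the labels' protocols. The values deposited by the authors are linear probe set intensities. Their summary algorithm and scaling are not given in the sources used here. No detection calls were used. Intensities were quantile normalized across arrays and taken as log2(value + 16). Of 45101 rows, 34958 carried 1 symbol, 932 several and 9211 none listed, and 64 were controls. The probe set with the highest mean stood for a gene, and genes under the 40th percentile were left out. Groups were taken from the labels and compared with limma 3.58.1 (R 4.3.3) in 1 fit of 4 group means, two-sided, with Benjamini-Hochberg adjustment over 13117 genes and a threshold of 0.05. The trend used 18 mice. Probe sets were also tested singly, adjusted over 27022. The fit was checked on simulated data. The number of arrays limits precision.

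The genes and lists were chosen with earlier results of these data known. Named genes were all members, up to 3 largest calls per pathway list and 7 preset pathway genes, and the 5 genes most like the members' mean. Gbp8, Irgq, Ifngr1, Ifngr2 and the marker genes were named after their values were seen. Alternatives were other scalings, constants of 1 and 64, other filters and probe set rules, array weights, a Gapdh term, a replicate block and fits without single mice or 0.5% quercetin replicates 5 and 6. Correlations and group orders without those 2 mice were added after the data were seen.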

Additional observations from a re-analysis of the deposited data

Results flagged for a closer look

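Among 52 groups of 6 values checked (13 probe sets in 4 groups), 3 held a mouse far from the others, where chance gives about 1 in 20. Igtp was 7.06 in control replicate 2, against 7.38 to 7.53 in the other controls. The second Iigp1 probe set read 9.67 in 0.1% quercetin replicate 5, against 9.12 to 9.28 in the rest of that group. The second Gbp2 probe set read 4.55 in STZ replicate 2, against 4.88 to 5.05. The probe set listing Tgtp2 and Tgtp1, which belongs to no single gene, was 1.01 higher in STZ mice than in controls on the log2 scale. It was 0.88 higher at 0.1% quercetin (limma adjusted p = 0.00765) and 0.75 higher at 0.5% (adjusted p = 0.102). The value at 0.5% includes the arrays with labels in doubt.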

How the results depend on the processing

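Over 1692 recomputed differences of the 9 genes, 0 reversed past the threshold, 50 lost a call, 32 gained one and 1610 kept their side. In STZ against control (4 genes called) the count was 0 with the Gapdh term and 2 to 4 with 1 mouse left out, with Gbp3 and Gbp7 left without STZ replicate 1, 3 or 6. Called pathway genes (7) were 4 on deposited values or a constant of 1, 11 without 0.5% quercetin replicates 5 and 6 or with array weights, 0 with the Gapdh term and 3 to 8 with 1 mouse left out. At 0.1% quercetin against control (3) the count was 1 on deposited values or a constant of 1, 6 without replicates 5 and 6, 0 with the Gapdh term and 1 to 4 with 1 mouse left out. At 0.5% (0) it was 6 without replicates 5 and 6, 2 with array weights and 0 to 2 with 1 mouse left out, the 2 arising without replicate 5 or 6.

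All-gene calls in STZ against control (266 higher, 222 lower) were 120 and 41 on deposited values, 170 and 281 after median scaling, 6 in all with the Gapdh term and 787 with array weights. They were 302, 322 and 246 without control replicate 3, STZ replicate 3 and STZ replicate 6. At 0.1% quercetin against control, 731 calls (385 higher) became 217 on deposited values, 4 with the Gapdh term and 440 and 460 without 0.1% quercetin replicates 5 and 6 in turn, and median scaling gave 221 higher and 539 lower. At 0.5%, 17 became 685 after median scaling, 8 on deposited values, 0 with the Gapdh term, 106 with weights, 432 without replicates 5 and 6, 30 with trimmed mean scaling, 6 and 9 with constants of 1 and 64, 3 without a filter, 8 per probe set, 0 on the groups compared alone, 6 with the replicate block, and 1 to 150 with 1 mouse left out. Counts among the 9 genes for the other comparisons stayed at 0 in each alternative. The labels do not say that replicate numbers pair mice. Of 36 same-number pairs 5 correlated above 0.1 (median 0.01, highest 0.32) and 9 arrays matched best with their own number. Correlations of whole arrays cannot decide whether mice were paired by cage or day. With the replicate block the counts stayed at 4 in STZ against control, 3 at 0.1% quercetin against control and 0 elsewhere, and 8 pathway genes were called. Arrays carry no read depth, and the sizes for Gbp2 and Gbp3 moved with the added constant.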
